A study of Mus musculus with 2 samples.

Results

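Lysosome and autophagy genes were examined in BM LSKs, the bone marrow cells that lack lineage markers and carry both c-Kit and Sca1, which hold the hematopoietic stem and early progenitor cells. The genes were chosen by a rule on their symbols. They are the cathepsins with a single-letter name, all V-ATPase subunits and accessory proteins named Atp6v or Atp6ap, the Lamp proteins, the Atg and Ulk genes, the Gabarap and Map1lc3 genes, Sqstm1, and the transcription factors Tfeb, Tfe3 and Mitf. Of 34745 genes in the deposited tables, 77 met this rule after Ctsg, a neutrophil granule protease, and 2 pseudogenes (Atg4a-ps and Atp6v0c-ps1) were set aside. The mice were Scl/tTA-BA double transgenic animals on the C57BL/6 background, in which the Scl promoter drives tTA in stem and progenitor cells and tTA switches on BCR/ABL (BA) when doxycycline is taken away. Both groups carried both transgenes. The week-0 group was sampled at 0 weeks of doxycycline withdrawal, as the control, and the week-3 group 3 weeks after withdrawal; the labels give no age for either. Each group was 1 library from the mixed LSKs of 3 mice, so the spread between mice is unknown, no test between time points could be made, and every difference given here is between these 2 libraries. Reads assigned to genes numbered 6356164 at week-0 and 3886695 at week-3. Ly6a, which encodes Sca1, had an FPKM of 19.8 in the week-0 and 14.8 in the week-3 library, and Kit had 16.9 and 11.5, so both sorting markers were expressed in each library.

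Lysosomes are acidic organelles in which hydrolases, the cathepsins among them, break down proteins and other macromolecules. The V-ATPase keeps the lumen acidic by pumping protons, with its V1 sector hydrolysing ATP in the cytosol and its V0 sector carrying protons across the membrane. Macroautophagy delivers cytoplasm to lysosomes: the Ulk1 kinase complex starts a membrane that Atg9a and Atg2 proteins supply with lipid, 2 conjugation reactions attach Atg8 proteins (the LC3 and GABARAP proteins) to it, and receptors such as Sqstm1 (p62) load cargo. Tfeb, Tfe3 and Mitf activate many lysosomal and autophagy genes through a sequence known as the CLEAR element, and hematopoietic stem cells are known to depend on autophagy for their maintenance.

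The CLEAR element centres on TCACGTGA, and the stretches that hold it in promoters of the examined genes are shown because it is the known common element of this gene network. Promoters of 250 bases before to 50 bases after the annotated start came from RefSeq on GRCm38.p6, and 63 of the 77 genes matched by symbol, with 75 promoters. TCACGTGA, which reads the same on both strands, was found in promoters of 6 of these 63 genes (9.52%), and in promoters of 304 of all 27025 genes in the table (1.12%). Its core CACGTG, which lies inside every TCACGTGA, was found for 13 of the 63 genes (20.6%) and for 8.09% of all genes. The 6 genes are given below, each 5′ to 3′ on the strand of the gene, with the motif in capitals and the position of its first base relative to the RefSeq start. For Ctsa, Ctsd and Atp6v1a this start lay inside the gene as placed in the deposited tables.
Ctsd, chr7:142387911-142387934, minus strand, motif at -99: cccgcgtcTCACGTGAcccgttga
Ctsa, chr2:164833752-164833775, plus strand, motif at -13: gcaaactgTCACGTGAtgcagatg
Ctsa, chr2:164833769-164833792, plus strand, motif at 5: gcagatgcTCACGTGAccagagct
Atp6v1a, chr16:44139376-44139399, minus strand, motif at -132: tttttaaaTCACGTGAtaggctta
Atp6v0e, chr17:26676390-26676413, plus strand, motif at 3: cgcgccgaTCACGTGAgcctctgt
Atp6v0d1, chr8:105566053-105566076, minus strand, motif at -4: tactgcggTCACGTGAgacgcggt
Atg3, chr16:45158749-45158772, plus strand, motif at -72: gagtcgagTCACGTGAggccttag
All but Atg3 encode lysosomal proteins, and none of the 6 was past 2 times in either direction between the libraries. Their log2 ratios are given with their groups below and had a median of 0.36. A match describes the letters in the window and is not evidence of binding.

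Expression was compared as the log2 of the deposited FPKM at week-3 over that at week-0, called the log2 ratio. Its 95% interval is the exact Clopper-Pearson interval of the week-3 fraction of its reads, and it reflects the counting error of reads alone. For molecules the interval can be too narrow, because amplification can make several reads from 1 molecule. Of the 77 genes, 61 had at least 20 reads over both libraries. The other 16 were near silent in LSKs: 10 had no read in either library (Ctsj, Ctsm, Ctsq, Ctsr, Atp6v0a4, Atp6v1b1, Atp6v1e2, Atp6ap1l, Lamp3 and Lamp5), and 6 had at most 10 reads in all (Ctsk, Atp6v0d2, Atp6v0e2, Atp6v1c2, Atp6v1g3 and Ulk4). Most of these are forms known from other tissues, such as the placental cathepsins, the osteoclast protease Ctsk and the kidney V-ATPase subunits. Ulk4, a pseudokinase, had no read left at week-3 after 10 at week-0. The upper bound of the interval of its log2 ratio was -0.45.

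Among the 61 genes, 3 were higher at week-3 by 2 times or more (4.92%, beside 10.6% of the 12192 genes with at least 20 reads), and 8 were lower by 2 times or more (13.1%, beside 15.6%). The higher genes were Ctsz, Ctsc and Ulk2, and the lower genes were Sqstm1, Tfe3, Map1lc3a, Atg9a, Ulk1, Atp6v0c, Atg2a and Ctsf. Neither share was above that of all genes. Counting by interval, 24 genes lay above an equal level (39.3%, beside 34.0% of all tested genes) and 21 below it (34.4%, beside 28.5%), and genes with more reads pass this criterion more easily. The median log2 ratio of the 61 genes was 0.01, or -0.10 with TMM scaling. That of all tested genes was 0.07, or -0.04 with TMM scaling. The role groups differed from each other in where their members lay, as the plot of FPKM at both time points shows.

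**Figure D1:**
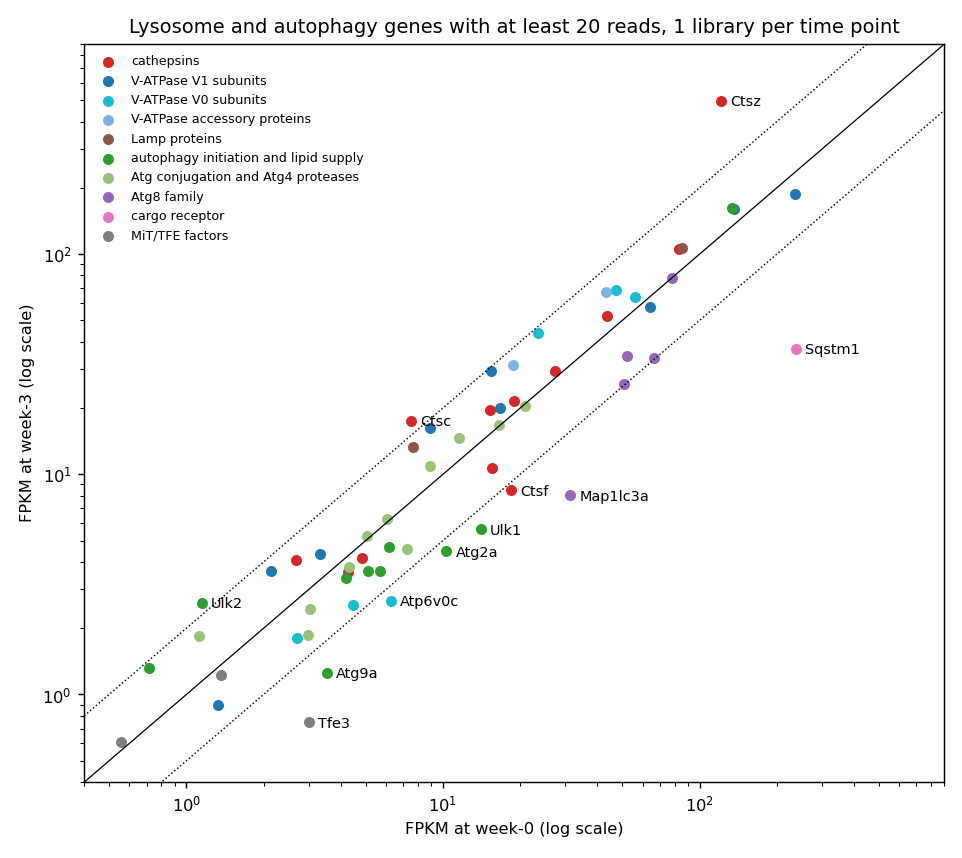
FPKM of the 61 lysosome and autophagy genes with at least 20 reads, at week-0 (horizontal, log scale) and at week-3 (vertical, log scale), coloured by role, with 1 point per gene and 1 library per time point. The solid line marks equal levels and the dotted lines mark 2 times and 0.5 times; the 11 labelled genes lie outside the dotted lines, with Ctsz 4.10 times higher and Sqstm1 6.38 times lower at week-3.

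Cathepsins are the proteases of the lysosome, and 12 of the 17 had at least 20 reads. Ctsz (ENSMUSG00000016256, minus strand of chromosome 2, from 174427493 to 174439039), a cysteine carboxypeptidase, had an FPKM of 121 in the week-0 library (1108 reads) and 496 in the week-3 library (2776 reads). It was 4.10 times higher at week-3, a log2 ratio of 2.03 (interval 1.93 to 2.14), and by reads it went from rank 940 to rank 171 among all genes. Ctsz thereby went from 33.4% to 64.1% of the summed FPKM of the cathepsins, a share that also depends on the gene lengths behind FPKM, and its own increase made up most of the growth of that sum, which was 362 at week-0 and 773 at week-3 with Ctsz and 241 and 277 without it. Ctsc (ENSMUSG00000030560, plus strand of chromosome 7, from 88278085 to 88310888), the dipeptidyl peptidase that activates serine proteases of myeloid and mast cell granules, had an FPKM of 7.51 in the week-0 library (322 reads) and 17.5 in the week-3 library (459 reads), a log2 ratio of 1.22 (interval 1.01 to 1.43).

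The widely expressed cathepsins were nearer to equal. Ctsd, the main aspartic protease of lysosomes, had the most reads of this group at week-0, 2040, and had 1596 at week-3. Its FPKM was 82.9 and 106, a log2 ratio of 0.36 (interval 0.26 to 0.45). Of its merged exon bases, 34.4% also belong to Gm49369, a protein-coding gene on the same strand. Ctsa, a serine carboxypeptidase that also protects other lysosomal enzymes, had a log2 ratio of 0.36, and Ctsb, an abundant cysteine protease, had 0.27. Ctsh, an aminopeptidase, was at 0.62 (interval 0.23 to 1.01). For Ctsl, Ctss, Ctso and Ctse the interval held 0, so no difference was detectable at this depth. Exons of Ctsl share 26.8% of their bases with Gm47123 on the opposite strand and 6.09% with a pseudogene on the same strand. Ctss cleaves the invariant chain of MHC class II in antigen-presenting cells, and its FPKM was 27.3 and 29.5.

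The exception on the low side was Ctsf (ENSMUSG00000083282, plus strand of chromosome 19, from 4855129 to 4860912), a cysteine protease, with an FPKM of 18.5 in the week-0 library (232 reads) and 8.47 in the week-3 library (65 reads). Its log2 ratio was -1.13 (interval -1.55 to -0.72). Ctsw, found in cytotoxic lymphocytes, had 122 and 51 reads and a log2 ratio of -0.55 (interval -1.05 to -0.07). Over the 12 cathepsins the median log2 ratio was 0.23.

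The libraries also differed in markers of other cells that use cathepsins in their granules or endosomes. All 8 mast cell and basophil markers were higher at week-3 by 2 times or more, with a summed FPKM of 125 in the week-0 and 3209 in the week-3 library, and only Tpsb2, a mast cell tryptase, was at 0 reads, at week-0. All 8 neutrophil markers were also higher, with a summed FPKM of 1651 and 8165, and none was at 0. Of the 10 monocyte and macrophage markers, 5 had at least 20 reads and 1 of these was higher by 2 times or more. The summed FPKM of all 10 was 239 and 424, and Fcgr1 was at 0 at week-0 and C1qc at week-3. In the other direction, all 4 plasma cell markers were lower (summed FPKM 263 and 7.76), as were all 5 erythroid markers (602 and 39.9) and the 5 dendritic cell markers with at least 20 reads out of 6 (442 and 69.4). Of 6 T and NK cell markers only Nkg7 had at least 20 reads, with an FPKM of 279 and 422, and the 3 Cd3 genes had at most 5 reads. Among 5 stem and progenitor genes, 2 (Flt3, also counted as a dendritic cell marker, and Mecom) were lower by 2 times or more and 1 was higher, with a sum of 225 and 83.1. The part of such cells in the values of the cathepsins and the other genes described here was not tested, and in pooled RNA a different number of cells of a type and a different amount of RNA per cell cannot be told apart.

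Of the V-ATPase genes, 17 of 25 had at least 20 reads, and 11 of the 17 were above an equal level, as were 53.4% of all tested genes. In the V1 sector the catalytic A subunit Atp6v1a went from an FPKM of 2.13 to 3.66, with 118 and 124 reads, a log2 ratio of 0.78 (interval 0.41 to 1.16). Its partner in the catalytic ring, Atp6v1b2, was at 0.87 (interval 0.67 to 1.08). Atp6v1c1, a subunit of the stalk that joins the sectors, was the gene nearest to 2 times from below, with an FPKM of 15.4 and 29.4 and a log2 ratio of 0.94 (interval 0.66 to 1.21). Atp6v1h, Atp6v1e1 and Atp6v1g1 lay between 0.24 and 0.40. The V1 gene with the most reads, Atp6v1f, a subunit of the central stalk, was below equal, with 1593 and 775 reads and an FPKM of 236 and 188. Its log2 ratio was -0.33 (interval -0.46 to -0.21). Atp6v1d, at -0.15 (interval -0.35 to 0.05), and Atp6v1g2, at -0.56 on 53 and 22 reads (interval -1.35 to 0.18), were also below equal. The median of the 9 V1 genes was 0.26, and their summed FPKM, with those of the silent forms, was 483 at week-0 and 480 at week-3.

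The V0 genes split into both directions. Atp6v0b, the c″ subunit of the membrane ring, was at 0.90 (interval 0.76 to 1.05), with an FPKM of 23.6 and 44.0. Atp6v0e, a small membrane subunit with the most reads of this sector, 1072 and 955, was at 0.54, and Atp6v0d1, which couples V0 to the stalk, was at 0.19. Atp6v0c (ENSMUSG00000024121, minus strand of chromosome 17, from 24163866 to 24169702), which builds most of the proton-carrying ring, was lower: it had an FPKM of 6.25 in the week-0 library (181 reads) and 2.66 in the week-3 library (47 reads), a log2 ratio of -1.24 (interval -1.73 to -0.77). Both expressed a subunits, which form the proton path and place the pump in different membranes, were below equal, Atp6v0a1 at -0.58 and Atp6v0a2 at -0.80. Tcirg1, the a3 subunit, does not share their name and was not part of the chosen genes. Its FPKM was 17.7 and 27.9, a log2 ratio of 0.65 (interval 0.51 to 0.80), opposite in sign to both.

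Both accessory proteins with reads were higher at week-3. Atp6ap1, which assists assembly of V0, had a log2 ratio of 0.74, and Atp6ap2, also known as the prorenin receptor, had 0.63. The Lamp genes behaved alike in sign. Lamp1, a main glycoprotein of the lysosomal membrane, had an FPKM of 85.3 and 107 and a log2 ratio of 0.33 (interval 0.20 to 0.45), and Lamp2, its relative that also serves chaperone-mediated autophagy, had 7.63 and 13.3 and a log2 ratio of 0.80 (interval 0.62 to 0.98).

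**Figure D2:**
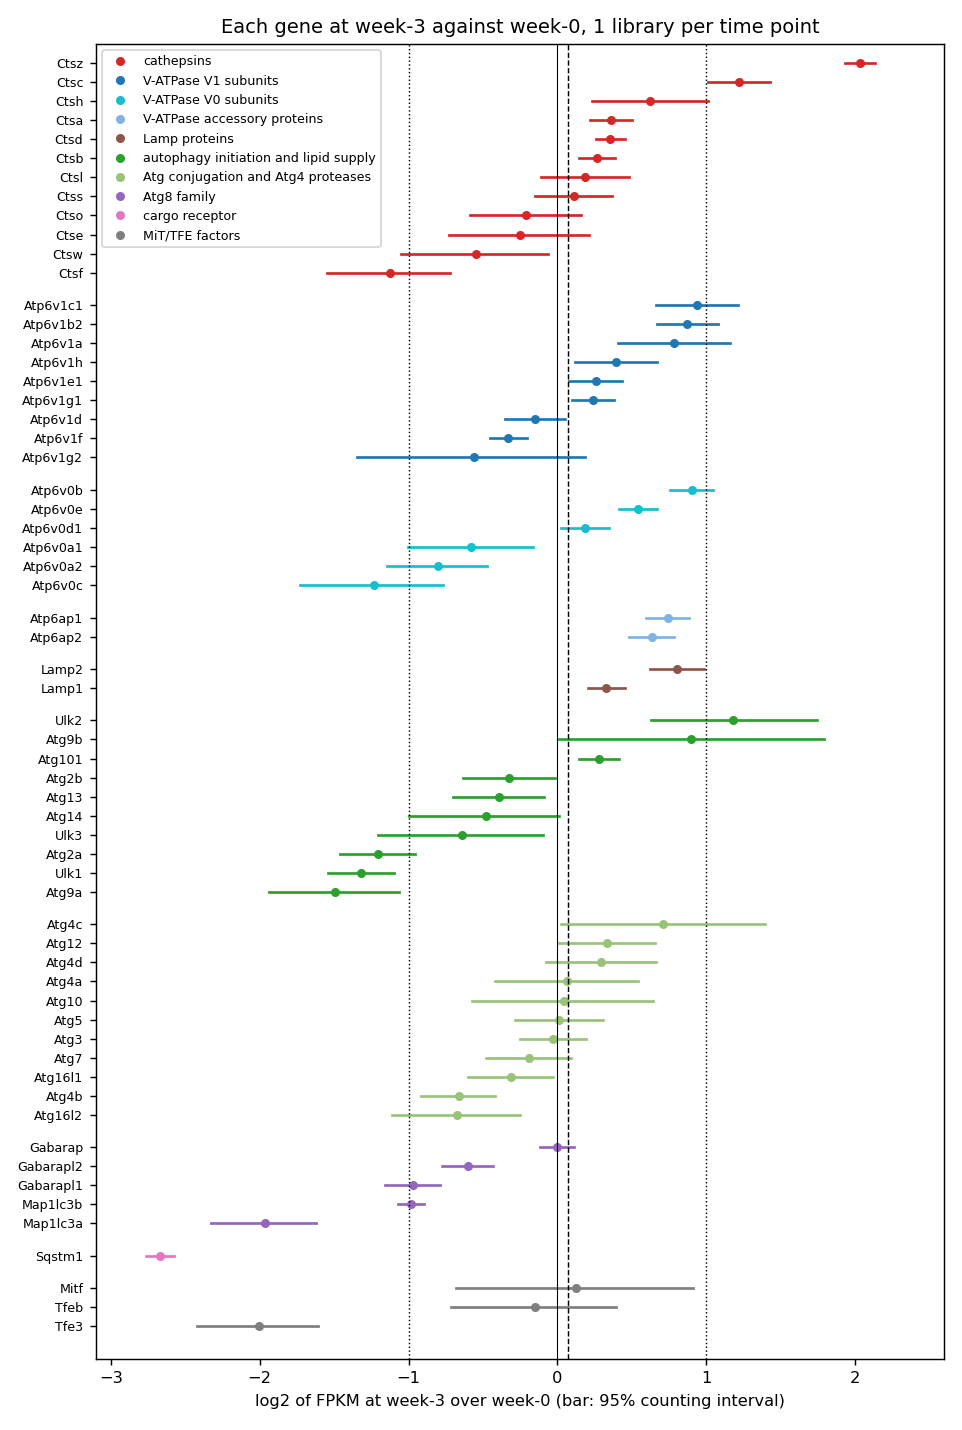
Log2 of FPKM at week-3 over week-0 for each of the 61 genes, grouped and coloured by role, with bars for the 95% counting interval. Dotted lines mark 2 times and 0.5 times and the dashed line marks the median of all tested genes, 0.07; both Lamp genes and both V-ATPase accessory genes lie to its right, while all 5 Atg8 genes and Sqstm1 lie to its left.

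Sqstm1 (ENSMUSG00000015837, minus strand of chromosome 11, from 50199366 to 50210827) showed the largest difference of the 61 genes. It encodes p62, the receptor that binds ubiquitinated cargo and Atg8 proteins and is itself degraded by autophagy. The week-0 library held 10541 of its reads, which placed it at rank 68 of all genes by reads, and the week-3 library held 1011, at rank 574. Its FPKM was 236 at week-0 and 37.1 at week-3, which was 6.38 times lower, a log2 ratio of -2.67 (interval -2.77 to -2.58), and 3.91% of all tested genes had a lower ratio. In GENCODE M21, 17.3% of its exon bases also belong to exons of Mrnip on the opposite strand, and the sources used here do not state whether counting used strand.

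The Atg8 family, the ubiquitin-like proteins that coat the autophagosome, was equal or lower throughout. Map1lc3b, the LC3 protein most used as a marker of autophagosomes, had the most reads, 4460 and 1380. Its FPKM was 66.4 and 33.6, a log2 ratio of -0.98 (interval -1.07 to -0.90). Map1lc3a (ENSMUSG00000027602, plus strand of chromosome 2, from 155276297 to 155278073) had an FPKM of 31.4 in the week-0 library (505 reads) and 8.03 in the week-3 library (79 reads), which was 3.91 times lower, a log2 ratio of -1.97 (interval -2.33 to -1.62). Gabarapl1 was at -0.97 (interval -1.16 to -0.79) and Gabarapl2 at -0.60 (interval -0.78 to -0.43). Exons of Gabarapl1 share 28.3% of their bases with 1700101I11Rik on the opposite strand. Map1lc3b and Gabarapl1 lay just short of 0.5 times. With TMM scaling, which lowers every log2 ratio by 0.11, they were at -1.10 and -1.08, and the number of genes lower by 2 times or more became 10. The 15.6% of all tested genes given above was without this scaling, so it does not stand beside the 10. Gabarap stood apart from its relatives, with an FPKM of 77.9 and 77.8 and a log2 ratio of -0.00 (interval -0.12 to 0.11).

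The make-up of the Atg8 family differed accordingly. FPKM of different genes can be compared only through the lengths used to make them. For 74.0% of genes with reads this length equalled the sum of all distinct exons in GENCODE M21 within 1%. That sum counts overlapping exons of different transcripts more than once. For 24.5% the length equalled that of the merged exons. These shares overlap, because for some genes, such as Ctsz, the sum and the merged length are the same. Genes with many annotated transcripts thus have FPKM that are too low next to others, whereas the ratio of a gene between libraries is not affected. The shares of the family were therefore also computed as reads per base of merged exons. On that scale the share of Gabarap was 31.4% in the week-0 and 48.5% in the week-3 library, and the Map1lc3 genes together took 35.9% and 22.3%. From the deposited FPKM the shares were 28.0% and 43.3% for Gabarap, and 35.1% and 23.2% for the Map1lc3 genes.

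**Figure D3:**
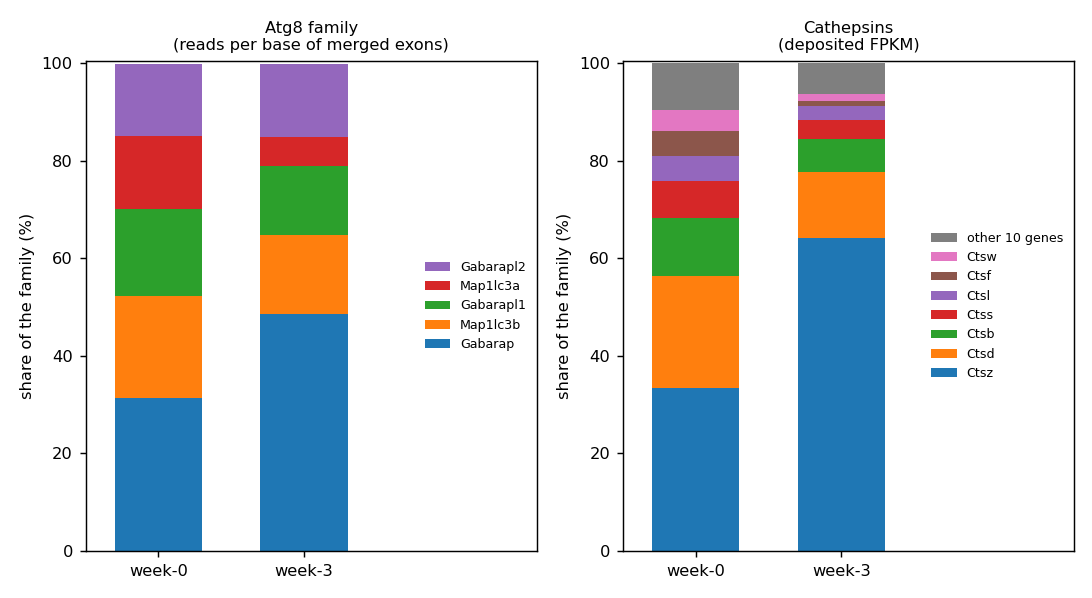
Share of each gene in its family at week-0 and week-3, as stacked bars in percent, for the 5 Atg8 genes (reads per base of merged exons) and the 17 cathepsins (deposited FPKM, the 10 lowest at week-0 combined). Gabarap goes from 31.4% to 48.5% of its family and Map1lc3a from 15.0% to 5.94%, and Ctsz goes from 33.4% to 64.1% of the cathepsins.

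The genes that start autophagosomes and supply them with lipid had a median log2 ratio of -0.44 over the 10 with at least 20 reads. Ulk1 (ENSMUSG00000029512, minus strand of chromosome 5, from 110784488 to 110810097), the kinase at the head of the pathway, had an FPKM of 14.0 in the week-0 library (865 reads) and 5.61 in the week-3 library (212 reads), a log2 ratio of -1.32 (interval -1.54 to -1.10). Its close relative Ulk2 (ENSMUSG00000004798, minus strand of chromosome 11, from 61775649 to 61855073) went the other way, with an FPKM of 1.15 on 49 reads and 2.61 on 68 reads, a log2 ratio of 1.18 (interval 0.63 to 1.74). Ulk3, another kinase of the family, was at -0.64.

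The partners of Ulk1 in its complex were closer to equal. Atg13, which links the kinase to the complex, was at -0.39 (interval -0.70 to -0.09), and Atg101, which stabilizes Atg13 and had the most reads of this group, 1041 and 772, was at 0.28 (interval 0.14 to 0.41). Lower values were found for the lipid supply. Atg9a (ENSMUSG00000033124, minus strand of chromosome 1, from 75180860 to 75192196), a scramblase on the vesicles that seed the membrane, had 253 and 55 reads and an FPKM of 3.54 and 1.26, a log2 ratio of -1.49 (interval -1.94 to -1.07). Of its merged exon bases, 31.8% also belong to Gm29253, a transcript on the same strand. Atg2a (ENSMUSG00000024773, plus strand of chromosome 19, from 6241668 to 6262335), which transfers lipid into the growing membrane, had 622 and 165 reads and an FPKM of 10.3 and 4.47, a log2 ratio of -1.20 (interval -1.46 to -0.96). Its paralog Atg2b was at -0.32, and Atg9b, with 22 and 25 reads, was at 0.89 (interval 0.01 to 1.79). Atg14, which directs the lipid kinase complex to autophagosomes, was at -0.48 with an interval that held 0.

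The conjugation genes differed least between the libraries, with no gene of 11 past 2 times and a median of 0.01, or -0.10 with TMM scaling. Atg3, the E2-like enzyme of Atg8 and the gene of this group with the most reads over both libraries, had an FPKM of 20.8 and 20.4 and a log2 ratio of -0.03 (interval -0.25 to 0.19). Atg5, joined to Atg12 in the E3-like complex, was at 0.01, and Atg7, the E1-like enzyme, at -0.19, both with intervals that held 0. Atg12 was at 0.33, with an interval whose lower bound was 0.01. Atg16l1, which places the complex on the membrane, was at -0.31, and its relative Atg16l2 at -0.67 (interval -1.11 to -0.25). Of the Atg4 proteases that trim Atg8 proteins, Atg4b was at -0.66 (interval -0.92 to -0.42), Atg4c at 0.71 on 38 reads in each library, and Atg4a and Atg4d had intervals that held 0. Exons of Atg4d share 19.3% of their bases with Kri1 on the opposite strand. Atg5, Atg10 and Atg4a lay just above equal and were just below it with TMM scaling, as was Ctss.

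Of the factors that drive the network, Tfe3 (ENSMUSG00000000134, plus strand of chromosome X, from 7762560 to 7775202) was lower at week-3. It had an FPKM of 2.99 in the week-0 library (393 reads) and 0.747 in the week-3 library (60 reads), a log2 ratio of -2.00 (interval -2.42 to -1.61). Tfeb, the best known activator of lysosomal genes, had 80 and 44 reads and a log2 ratio of -0.15 (interval -0.72 to 0.40), and Mitf, a regulator of melanocytes and mast cells, had 36 and 24 reads and 0.12 (interval -0.68 to 0.91). No difference of Tfeb or Mitf was detectable at this depth. Activity of these factors is set largely by their place in the cell, which RNA does not show.

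Taking cathepsins, V-ATPase and Lamp genes as lysosomal and the Atg, Ulk, Atg8 and Sqstm1 genes as autophagy genes, 21 of 31 lysosomal genes were above an equal level and 18 of 27 autophagy genes were below it, with median log2 ratios of 0.27 and -0.32. Above an equal level were thus 67.7% of the lysosomal and 33.3% of the autophagy genes, beside 53.4% of all tested genes, and with TMM scaling the shares were 64.5%, 22.2% and 47.8%. The lysosomal genes took 0.287% of all week-0 reads and 0.413% of all week-3 reads, and the autophagy genes took 0.398% and 0.186%. Without Sqstm1, the autophagy genes took 0.232% and 0.160%. This division was chosen with the values known, so it is a description. Over all tested genes the longest models had the lowest median ratio. Of 4 equal classes by FPKM length, the longest, of 8663 bases or more, had a median of -0.06 and the shortest had 0.12, and the 18 examined genes in the longest class had a median of -0.45. In the shorter classes the examined genes followed no order, with medians of 0.18, -0.00 and 0.62 from the shortest upward. The median length was 4553 bases for the lysosomal and 4861 bases for the autophagy genes, and the part of length in these values was not tested.

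Other genes of the same pathways were described in the same way, in 6 lists. Beside their counts, 10.6% of all tested genes were higher and 15.6% lower by 2 times or more. Of 37 genes listed as other lysosomal hydrolases, with some helper proteins such as Psap among them, all had at least 20 reads. By 2 times or more, 3 were higher and 3 were lower, with a median log2 ratio of 0.31. Neu1, the sialidase that works in a complex with Ctsa, had an FPKM of 3.98 and 14.9 and a log2 ratio of 1.90 (interval 1.62 to 2.18), and Galns and Manba, which degrade glycans, were at 1.32 and 1.05, the latter under 2 times with TMM or median-of-ratios scaling. On the low side, Psap, the precursor of the saposins that present sphingolipids to hydrolases, had 1486 and 236 reads and a log2 ratio of -1.94 (interval -2.15 to -1.75), Sgsh was at -1.61 and Idua at -1.35. Among 23 genes of the lysosomal membrane and cargo sorting, none was higher and 2 were lower: Npc1, the cholesterol exporter, with 396 and 56 reads and a log2 ratio of -2.11 (interval -2.54 to -1.71), and Igf2r, a mannose 6-phosphate receptor, at -2.41 on 61 and 7 reads. Their median was 0.02.

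Of 9 V-ATPase genes with other names, 8 had at least 20 reads, with a median of 0.42. Tmem199, which assists V-ATPase assembly, was higher by 2 times or more, with 55 and 190 reads and a log2 ratio of 2.50 (interval 2.06 to 2.96). Of 20 genes that sense nutrients at the lysosome, 19 had at least 20 reads, 1 was higher and none was lower, with a median of -0.02. The higher one was Lamtor3, a Ragulator subunit, at 1.21, and with TMM or median-of-ratios scaling 3 genes just short of the limit (Rragb, Rptor and Tsc2) were lower. The 15.6% of all tested genes is without these scalings and does not stand beside the 3. Of 8 cathepsin inhibitors only 3 had at least 20 reads. Cst7, an inhibitor of cathepsins made by myeloid and cytotoxic cells, had an FPKM of 94.3 and 309 and a log2 ratio of 1.71 (interval 1.57 to 1.86), while Cst3, the main secreted one, was at -0.05.

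Autophagy genes without an Atg name had a median of -0.16 over 38 of 39 genes; Rubcn was not matched by symbol. Among them 2 were higher and 3 lower by 2 times or more, which became 1 and 5 with TMM or median-of-ratios scaling, as Nrbf2 was lost and Ambra1 and Epg5 were added. The shares of all tested genes given above are without these scalings, so they do not stand beside the 1 and the 5. The 3 lower genes were Optn, a receptor for ubiquitinated cargo, at -2.67 on 52 and 5 reads (interval -4.35 to -1.35), Trp53inp2 at -1.63, and Calcoco1, a receptor for endoplasmic reticulum, with 301 and 89 reads and a log2 ratio of -1.05 (interval -1.41 to -0.70). Other cargo receptors did not share this: Tax1bp1, with 2174 and 1153 reads, was at -0.21, and Nbr1 was at 0.44. The higher genes were Wipi1, which binds the lipid of the forming membrane, at 1.24 on 29 and 42 reads, and Nrbf2, of the lipid kinase complex, at 1.03.

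**Figure D4:**
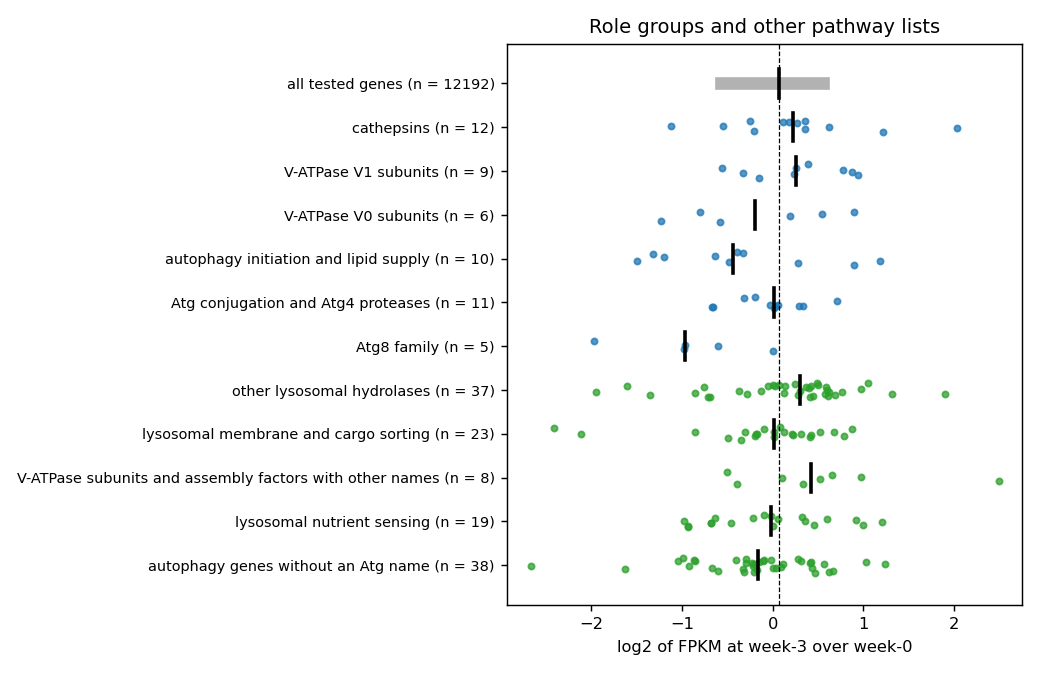
Log2 of FPKM at week-3 over week-0 for role groups with at least 5 genes (blue) and for the other pathway lists (green), 1 point per gene with vertical jitter, for genes with at least 20 reads. Black ticks mark medians, the grey bar the middle 50% of all 12192 tested genes and the dashed line their median of 0.07; the lowest median is that of the Atg8 family, -0.97.

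The deposited tables also place 123 genes in KEGG's lysosome pathway, and 96 of them are not among the 77 genes. Of these 96, 91 had at least 20 reads. By 2 times or more, 8 were higher and 6 lower, beside 10.6% and 15.6% of all tested genes. Their median log2 ratio was 0.21, beside 0.27 for the lysosomal genes examined here. The highest log2 ratio among them, 2.88, was that of Ctsg, which the rule set aside. Their lowest, -2.41, was that of Igf2r, which is also in a list above.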

How the data were processed

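LSK RNA was profiled at week-0 and week-3, 1 library each. The authors made cDNA with a low-input SMARTer kit, mapped trimmed paired-end reads to GRCm38 with TopHat2 2.0.9 (submitters' processing notes), and deposited counts, whole reads per gene without normalization. The FPKM values are deposited beside the counts and were normalized by the authors to exon length and to reads in the library. The counting tool, its use of strand and the annotation release are not given in the sources used here.

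Genes were ranked and described by the log2 ratio of FPKM. No p-value is reported, since without replicates the variation is unknown; q values at an assumed variation served only as an alternative. Calls needed at least 20 reads over both libraries and a ratio of at least 2 or at most 0.5. Intervals at 95% were computed with scipy 1.17.1. The members and lists were chosen with earlier results of these data known. Every chosen gene could be named, with reads, FPKM, log2 ratio and interval for those past the limits and some of these values for the others. Of other lists, genes past the limits were named, and Tcirg1, Tax1bp1, Nbr1, Cst3, the genes next to the limits in other lists and the KEGG pathway were added after their values were seen. Alternatives used TMM and an exact test at a fixed biological coefficient of variation in edgeR 4.0.16, and median-of-ratios factors of DESeq2 1.42.0. Coordinates of genes are those of the deposited tables, those of the motif stretches are from the RefSeq promoters, and strand and exons are from GENCODE M21. A list of B cell markers is not reported here.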

Additional observations from a re-analysis of the deposited data

How the results depend on the processing

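No paired analysis was possible because each time point has 1 library, and no library could be left out. The median of the 61 genes, 0.01, was near 0 and changed sign: it was -0.10 with TMM scaling, -0.0765 with median-of-ratios scaling and -0.0019 with at least 100 reads. The conjugation genes, also at 0.01, were at -0.10, -0.0765 and -0.0073 under the same alternatives, and the genes of the lysosomal membrane and cargo sorting, at 0.02, were at -0.10 and -0.0733 with TMM and median-of-ratios scaling. The V0 genes went from -0.20 to 0.19 once Atp6v0e2, with 7 reads, entered under a filter of reads in both libraries. The MiT/TFE factors went from -0.15 to -1.08 with at least 100 reads, where Mitf drops out, and Sqstm1 went from -2.67 to -2.78 with TMM scaling. With fold limits of 1.5 and 0.67, 13 genes were higher (21.3%, beside 23.7% of all tested genes) and 16 lower (26.2%, beside 24.8%). With the added condition of q under 0.05 in edgeR's exact test, 0 were higher and 0 lower at an assumed biological coefficient of variation of 0.4, and all 11 were kept at 0.1, so the calls rest on the variation assumed between mice, which these data cannot give. Of 61 single genes, 4 left their counting interval with TMM scaling, 1 with median-of-ratios scaling and 2 with a pseudocount of 1 FPKM, and no called gene changed sign. Depth limits Tfeb, Mitf, Atg9b and the 16 genes under 20 reads.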
